A study of Mus musculus with 8 samples.

Results

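The 8 genes described here make or sense prostaglandin E2 and its relatives: Pla2g4a, Ptgs1, Ptgs2, Ptges, Ptges2, Ptges3, Ptgis and Ptger4. They were chosen by symbol from the 20972 rows of the authors' deposited comparison, and each had 1 row. The cells were MC3T3-E1 subclone 14, an osteoblastic line from mouse calvaria that is a single clone, per the sample labels and the series' title. The series' design text describes human bone microvascular endothelial cells instead; the sample labels were followed, and the table holds mouse gene symbols. One group received 10 µM Yoda1, an agonist of the calcium-permeable channel PIEZO1, dissolved in DMSO, and the other received DMSO, both for 24 h and with the same medium. The labels name 4 samples per group and leave 1 of each out of the final analysis for batch variation, which leaves 3 Yoda1 and 3 DMSO libraries. The deposited table holds 1 comparison and no values per library, so each gene is given by its mean normalized count over both groups and its log2 fold change, Yoda1 over DMSO, with the standard error (SE). The sample labels do not say whether these were separate cultures, and the p-values therefore measure the spread between libraries alone, which may be technical.

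As background, cytosolic phospholipase A2 frees arachidonic acid from membranes when calcium rises, and the cyclooxygenases turn it into prostaglandin H2. Terminal synthases then make prostaglandin E2, prostacyclin and other prostanoids, which leave the cell and act on G protein-coupled receptors. In bone, osteoblasts are a source of prostaglandin E2, loading of bone cells is a known stimulus of its release, and the EP4 receptor, which couples to Gs and cyclic AMP, carries much of its effect on bone formation and on osteoclast support.

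The promoters of 3 genes of the pathway are shown because they set an inducible cyclooxygenase (Ptgs2) and an inducible synthase (Ptges) beside the second cyclooxygenase (Ptgs1), all of which were higher with Yoda1. Each window runs from 250 bases before to 50 bases after a start annotated by RefSeq on GRCm38.p6, is 300 bases long and is written 5′ to 3′ on the strand of the gene. Capitals mark matches, on either strand, to CGTCA (the core of the cyclic AMP response element, CRE), CACGTG (an E-box), TTGCGCAA (a palindrome of the kind bound by C/EBP factors) or GGGCGG (a GC box).
Ptgs2, chr1:150099781-150100080, + strand: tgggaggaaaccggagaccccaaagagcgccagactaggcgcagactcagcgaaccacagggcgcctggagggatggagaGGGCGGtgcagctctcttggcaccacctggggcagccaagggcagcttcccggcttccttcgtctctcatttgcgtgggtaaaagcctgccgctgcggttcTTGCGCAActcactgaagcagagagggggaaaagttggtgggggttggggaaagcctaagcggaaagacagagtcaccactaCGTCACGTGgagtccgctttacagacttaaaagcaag
Ptges, chr2:30903248-30903547, - strand: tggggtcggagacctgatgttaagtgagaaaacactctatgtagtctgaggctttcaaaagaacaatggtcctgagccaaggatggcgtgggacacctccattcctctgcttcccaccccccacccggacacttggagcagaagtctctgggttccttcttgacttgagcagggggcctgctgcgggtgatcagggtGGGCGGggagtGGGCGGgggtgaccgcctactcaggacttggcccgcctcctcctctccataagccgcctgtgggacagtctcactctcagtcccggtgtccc
Ptgs1, chr2:36230176-36230475, + strand: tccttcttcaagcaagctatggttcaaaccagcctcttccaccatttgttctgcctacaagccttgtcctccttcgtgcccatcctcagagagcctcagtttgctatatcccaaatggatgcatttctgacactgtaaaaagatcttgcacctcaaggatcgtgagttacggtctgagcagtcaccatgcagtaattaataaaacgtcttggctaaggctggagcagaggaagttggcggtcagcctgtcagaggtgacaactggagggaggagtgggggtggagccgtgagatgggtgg

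The Ptgs2 window held 1 match to each of the 4 motifs. Its CRE core and E-box share 2 bases and lie 13 to 21 bases after the annotated start, and its C/EBP palindrome lies 69 to 62 bases before the start. These positions hold for the RefSeq start alone and would shift with another start. Whether transcription began there in these cells was not tested. Of the 32851 windows of this length in the RefSeq table, 20.8% hold the CRE core, 7.15% the E-box, 35.7% the GC box and 0.183% the C/EBP palindrome, a motif that was picked after the Ptgs2 window had been read. The Ptges window held 2 GC boxes and none of the other 3 motifs, and the Ptgs1 window held none of the 4. GGAAA, the core bound by NFAT factors, matched 4 times in the Ptgs2 window and 0 times in those of Ptges and Ptgs1. At least 1 match occurs in 61.3% of all windows, and the share with 4 or more was not computed. TGANTCA, bound by AP-1, and the NF-kappaB motif were in none of these 3 windows and are in 7.81% and 4.51% of all windows. Windows were found for 7 of the 8 genes, and neither window of Pla2g4a held any of the motifs searched. The window of Ptges3, which was called lower, held 1 CRE core, 4 GC boxes and 1 GGAAA. Of the genes that did not pass, Ptger4 had 4 GC boxes and 2 GGAAA, and Ptges2 had 1 E-box and 2 GGAAA. The CRE core, E-box, GC box and GGAAA were thus also in windows of genes not called higher. These matches describe letters and say nothing of binding.

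**Figure D1:**
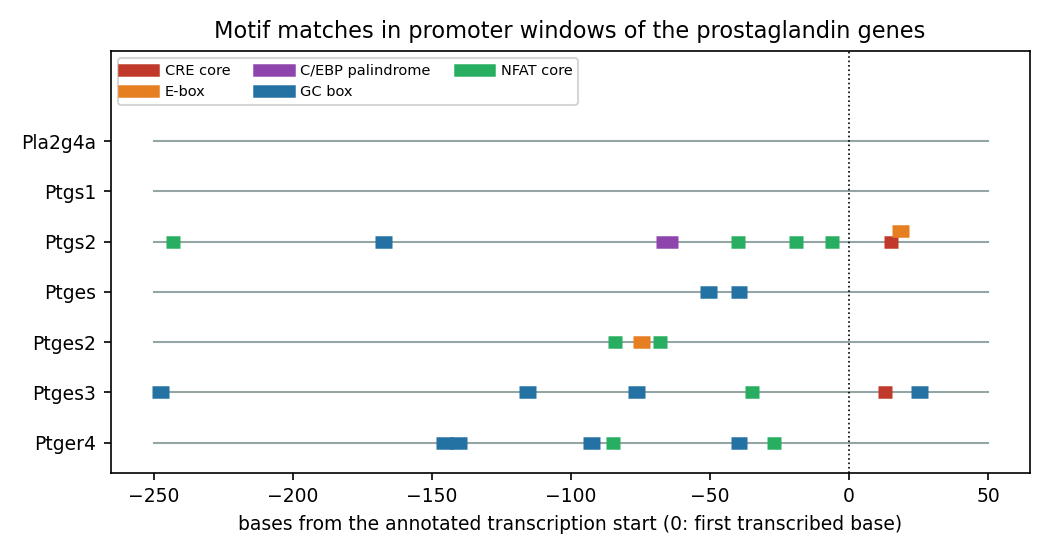
Positions of motif matches on either strand in the RefSeq promoter windows of 7 prostaglandin genes, for Pla2g4a the window of the upstream start. The horizontal axis gives bases from the annotated start, grey lines are windows, coloured blocks are matches, and the Ptgs2 E-box is drawn raised because it shares 2 bases with the CRE core. The Ptgs2 window holds 5 kinds of motif, while the Pla2g4a and Ptgs1 windows hold none.

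The enzymes from arachidonate release to inducible prostaglandin E synthesis were higher with Yoda1, and the receptor EP4 was not called. By the DESeq2 adjusted p under 0.05 in the authors' deposited table, 4 of the 8 genes rose (Pla2g4a, Ptgs1, Ptgs2 and Ptges), 1 fell (Ptges3), and Ptges2, Ptgis and Ptger4 did not pass. Across all 14653 genes with an adjusted p, 44.5% passed in either direction, 22.4% higher and 22.1% lower, and all 8 genes had an adjusted p. The median log2 fold change of the 8 genes was 0.70, against -0.01 for all tested genes. The authors' own class, with its added fold limit of 0.5 on the log2 scale in either direction, held the same 4 as higher and none of the 8 as lower, against 13.8% and 13.3% of all tested genes.

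**Figure D2:**
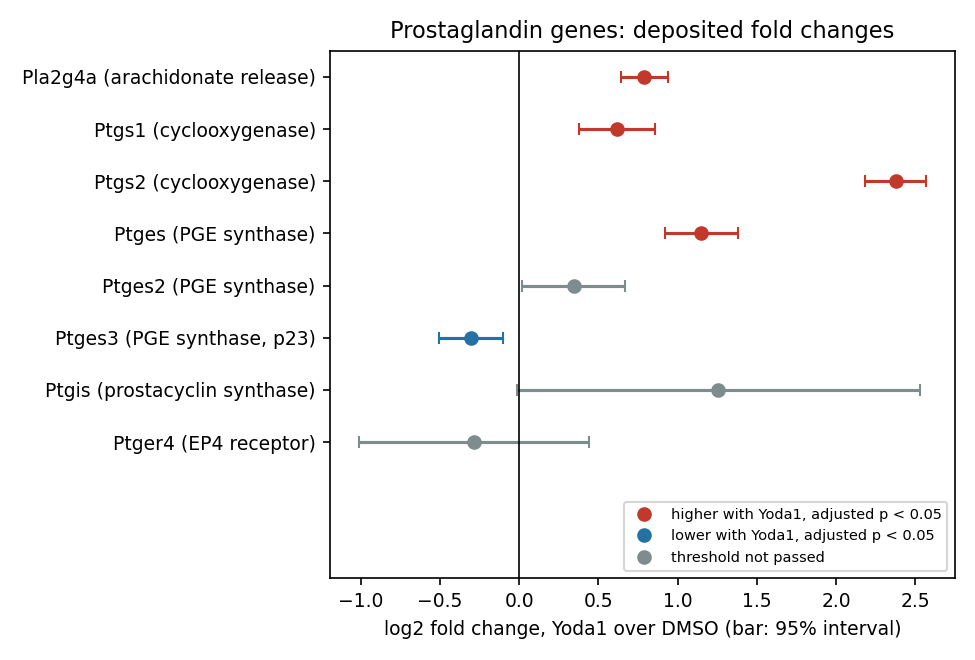
Log2 fold change, Yoda1 over DMSO, of the 8 prostaglandin genes in the authors' deposited table, in pathway order. Points are the deposited values, bars are 95% normal intervals, red marks genes higher and blue genes lower at an adjusted p under 0.05, and grey marks genes that did not pass. Ptgs2 stands furthest to the right at 2.38, and the widest bars belong to Ptgis and Ptger4.

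Pla2g4a, which encodes cytosolic phospholipase A2 alpha and supplies the arachidonate, was 1.73-fold higher with Yoda1 (95% interval 1.56 to 1.92; log2 fold change 0.79, standard error 0.08), with 2816 normalized counts on average, in the authors' deposited table. Its DESeq2 adjusted p there was 1.23e-23, and its standard error was the smallest of the 8 genes. The deposited mean and fold change imply a level of 3568 normalized counts in Yoda1 cultures and 2063 in DMSO cultures, if the 3 libraries of each group weigh equally.

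Both cyclooxygenase genes rose, by different amounts. Ptgs2, the inducible cyclooxygenase known as COX-2, was 5.19-fold higher with Yoda1 (95% interval 4.55 to 5.94; log2 fold change 2.38, standard error 0.10), with 4651 normalized counts on average, in the authors' deposited table (adjusted p = 9.54e-127 by DESeq2). It ranked 192 of 14653 tested genes by the size of its rise and 35 by adjusted p, and 95.1% of tested genes had a lower mean. Ptgs1, the cyclooxygenase usually called constitutive (COX-1), was 1.53-fold higher (1.30 to 1.81; log2 fold change 0.62, standard error 0.12), with 1259 normalized counts on average, in the authors' deposited table (adjusted p = 2.80e-06 by DESeq2). The intervals of the 2 genes did not overlap, but the difference between them was not tested, because the table gives no covariance of genes measured in the same libraries. Ptgs1 did not pass when its rise was tested against a log2 change of 0.5 instead of 0 (adjusted p = 1; over all alternatives 2.80e-08 to 1).

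The proportion of the cyclooxygenase transcripts differed between the group means. Per kilobase of the longest coding transcript in GENCODE M21, the implied level of Ptgs2 was 1752 normalized counts in Yoda1 cultures, against 337 in DMSO cultures. Ptgs1 stood at 532 normalized counts per kilobase in Yoda1 cultures and 347 in DMSO cultures. Ptgs2 thus made up 76.7% of the summed cyclooxygenase level in Yoda1 cultures and 49.3% in DMSO cultures. These shares describe the group means, with no spread between libraries to set them against.

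**Figure D3:**
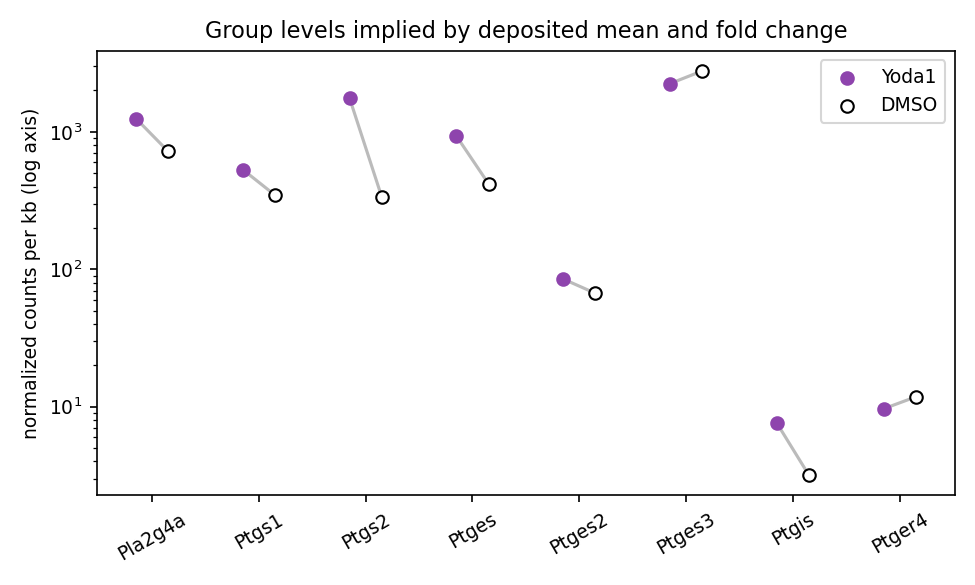
Levels of the 8 genes in Yoda1 (filled) and DMSO cultures (open) in normalized counts per kilobase, on a log axis, as implied by the deposited mean and fold change with equal group sizes. Grey lines join the 2 groups of a gene, and no error is drawn because the table holds no values per library. Ptgs2 stands at 1752 with Yoda1 and 337 with DMSO, and Ptgis and Ptger4 stand below 12 in both groups.

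The 3 prostaglandin E synthase genes did not move as one. Ptges encodes the microsomal synthase mPGES-1, which works with COX-2 in the induced production of prostaglandin E2. It was 2.22-fold higher with Yoda1 (95% interval 1.89 to 2.60), with 2463 normalized counts on average, in the authors' deposited table (adjusted p = 2.25e-21 by DESeq2). Its implied level was 3396 normalized counts in Yoda1 cultures and 1530 in DMSO cultures. Ptges2, the second membrane-associated synthase, had a log2 fold change of 0.34 with a standard error of 0.17 (adjusted p = 0.0789 by DESeq2), with 378 normalized counts on average, in the authors' deposited table. It passed when the summed counts of both groups were set equal (log2 fold change 0.45, adjusted p = 0.0169, range over the alternatives 0.0169 to 1).

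Ptges3 encodes p23, a co-chaperone of HSP90 that was also named cytosolic prostaglandin E synthase. It was 1.24-fold lower with Yoda1 (95% interval 1.08 to 1.42; log2 fold change -0.30, standard error 0.10), with 5021 normalized counts on average, in the authors' deposited table (adjusted p = 0.00814 by DESeq2). This call was lost when the statistic was read on 4 degrees of freedom (adjusted p = 0.116) and when both groups' counts were set to 1 sum (adjusted p = 0.101). Over all alternatives its adjusted p lay between 0.00696 and 1. Of the 31-base words of its longest coding transcript, 23.5% also occur in transcripts of other genes, chiefly Ptges3-ps, so its value is uncertain where reads were shared; for the other 7 genes this share was 4.44% or less. Per kilobase, Ptges stood at 931 normalized counts in Yoda1 cultures and 420 in DMSO cultures, Ptges2 at 84.9 and 66.9, and Ptges3 at 2246 and 2774. Of the summed level of Ptges and Ptges2, Ptges made up 91.6% in Yoda1 cultures and 86.2% in DMSO cultures. With the uncertain Ptges3 in the sum, the share of Ptges was 28.5% in Yoda1 cultures and 12.9% in DMSO cultures. These shares use the longest coding transcript of each gene, 3.65 kilobases for Ptges and 4.98 for Ptges2. Which transcripts were expressed was not tested, and other lengths would give other shares.

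Ptgis, the prostacyclin synthase, and Ptger4, the EP4 receptor, were the least abundant of the 8 genes, with means of 11.3 and 35.5 normalized counts in the authors' deposited table. Ptgis had a log2 fold change of 1.26 with a standard error of 0.65 (adjusted p = 0.105 by DESeq2) in the authors' deposited table, and the ratio of Yoda1 to DMSO had a 95% interval of 0.989 to 5.77. Ptger4 had a log2 fold change of -0.29 with a standard error of 0.37 (adjusted p = 0.575 by DESeq2) in the authors' deposited table, with a ratio between 0.495 and 1.36. No difference was detected for either gene, and the intervals do not show that the groups were alike. Implied levels were 16.0 normalized counts in Yoda1 and 6.69 in DMSO cultures for Ptgis, and 32.0 and 39.1 for Ptger4.

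**Figure D4:**
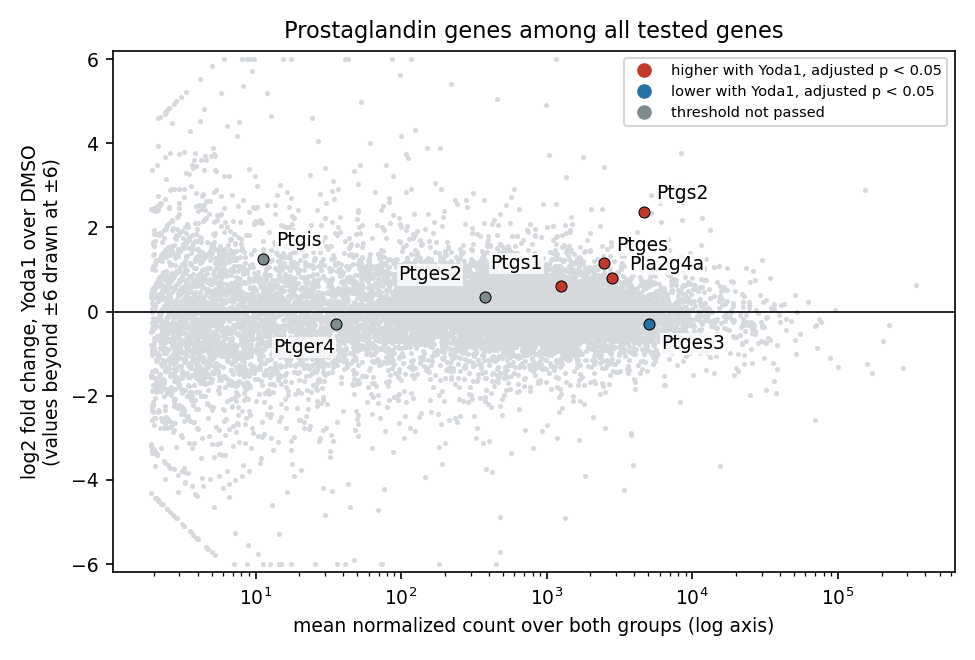
Log2 fold change, Yoda1 over DMSO, against mean normalized count (log axis) for the 14653 tested genes of the authors' deposited table (grey, values beyond ±6 drawn at ±6). The 8 prostaglandin genes are labelled, red where higher, blue where lower and dark grey where they did not pass. Ptgs2 lies at 2.38, while Ptgis and Ptger4 lie at low means where fold changes scatter widely.

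The neighbours of Ptgs2 on chromosome 1 gave 2 further values, which were chosen after they had been seen. Pla2g4a is the nearest protein-coding gene before Ptgs2 in the RefSeq annotation of GRCm38.p6, so these 2 genes that rose are neighbours among coding genes. The noncoding gene Ptgs2os stands between them and does not overlap Ptgs2. It had a log2 fold change of 0.17 with a standard error of 0.19 (adjusted p = 0.512 by DESeq2), with 137 normalized counts on average, in the authors' deposited table. Ptgs2os2, a noncoding gene on the other side of Ptgs2, was 1.90-fold higher with Yoda1 (95% interval 1.37 to 2.62, DESeq2 adjusted p = 0.000439), with 102 normalized counts on average, in the authors' deposited table.

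Around these genes, 9 lists covered the rest of the pathway, with 138 tested genes in all, of which 43 were higher and 33 lower with Yoda1 (median log2 fold change 0.03), or 51 and 28 with equal summed counts. Of all tested genes 22.4% were higher and 22.1% lower, so the share of the lists that was lower is near that of all genes. With equal summed counts, all tested genes gave 4138 higher and 2500 lower. Of the genes called in that setting, 64.6% were higher in the lists and 62.3% over all tested genes. In the list of phospholipases A2 and arachidonate handling, 8 of 20 tested genes rose and 3 fell, with a median of 0.16. The largest rise by adjusted p was that of Pla2g7, which encodes a hydrolase of platelet-activating factor and oxidised phospholipids, at 2.29-fold (95% interval 1.96 to 2.67) in the authors' deposited table. The secreted phospholipase gene Pla2g12a was 1.82-fold higher (1.48 to 2.23) and Dagla, which makes the arachidonate-bearing lipid 2-arachidonoylglycerol, 1.91-fold higher (1.64 to 2.23), per the authors' deposited table. The 3 that fell were the acyl-CoA synthetase gene Acsl3 (log2 fold change -1.45, standard error 0.17), the calcium-independent phospholipase gene Pnpla8 (-0.42, 0.11) and Mgll (-3.25, 0.95), a lipase that breaks 2-arachidonoylglycerol down, with an average of just 9.36 normalized counts in the authors' deposited table. Acsl4, the synthetase that prefers arachidonate, had a log2 fold change of 0.34 with a standard error of 0.09 (adjusted p = 0.000434 by DESeq2) in the authors' deposited table. Among the close relatives of Pla2g4a, Pla2g4b and Pla2g4c stood at means of 54.7 and 11.7 normalized counts in the authors' deposited table, and neither passed.

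Of 5 tested genes listed as other prostanoid synthases, 2 rose and 1 fell (median log2 fold change 0.65), against 22.4% higher and 22.1% lower of all tested genes. These counts and the median include Ptges3l. Akr1b1, an aldose reductase with prostaglandin F synthase activity, was 1.57-fold higher with Yoda1 (95% interval 1.36 to 1.83), and Ptges3l, a p23-like gene not known as a prostanoid synthase, was 2.01-fold higher (1.48 to 2.73), per the authors' deposited table. The glutathione transferase gene Gstm2, whose human counterpart can make prostaglandin E2 in vitro, had a log2 fold change of -0.65 (SE 0.09), and the thromboxane synthase gene Tbxas1 stood at a mean of 3.59 normalized counts and did not pass (adjusted p = 0.0575 by DESeq2) in the authors' deposited table. The prostaglandin D synthase genes Ptgds and Hpgds had no row under these symbols and were not analysed here.

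Genes of prostaglandin export, uptake and inactivation were higher with Yoda1 in 7 of 9 tested cases and lower in 0, with a median log2 fold change of 0.59, against 22.4% of all tested genes called higher. Slco2a1, the prostaglandin uptake transporter, was 3.42-fold higher (1.97 to 5.92, 95% interval) with 29.8 normalized counts on average, and Abcc4, which exports prostaglandin E2 and cyclic nucleotides, was 1.67-fold higher (1.45 to 1.94) at 556 in the authors' deposited table. Cyp4f16, of a family of fatty acid and eicosanoid hydroxylases, was 1.51-fold higher (1.30 to 1.75), per the authors' deposited table. Slc16a1, 1.89-fold higher (1.67 to 2.13) there, encodes a lactate carrier and is not known chiefly as a prostaglandin transporter. The 2 that did not pass were the prostaglandin reductase genes Ptgr1 (log2 fold change -0.04, standard error 0.10) and Ptgr2 (0.03, 0.19) in the authors' deposited table. Another reductase gene, Ptgr3, was higher (0.39, 0.11, DESeq2 adjusted p = 0.000926). Hpgd, the main prostaglandin dehydrogenase, had no row under this symbol and was not analysed here.

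The list of receptors and related genes left out Ptger4. Of its 6 tested genes, 0 rose and 2 fell (median log2 fold change -0.38), against 22.4% higher and 22.1% lower of all tested genes. Whether so few genes differ from those shares was not tested. The 6 include Ptgfrn, which is not itself a prostanoid receptor gene. They also include the nuclear receptor genes Ppard (log2 fold change 0.14, SE 0.11) and Pparg (0.30, 1.21), which did not pass in the authors' deposited table. The prostaglandin F receptor gene Ptgfr was 3.80-fold lower with Yoda1 (95% interval 2.87 to 5.04), with 417 normalized counts on average, in the authors' deposited table (adjusted p = 3.31e-19 by DESeq2). Its implied level was 174 normalized counts in Yoda1 cultures and 661 in DMSO cultures. Ptger1, the EP1 receptor gene, was 1.54-fold lower (1.13 to 2.10, DESeq2 adjusted p = 0.0155) at a mean of 109 in the authors' deposited table. Ptger2 and Ptger3, the EP2 and EP3 receptor genes, each averaged 0.195 normalized counts in the authors' deposited table and had no adjusted p. Per kilobase of transcript, the mean level over both groups was 63.0 normalized counts for Ptgfr, 23.2 for Ptger1 and 10.7 for Ptger4. The thromboxane receptor gene Tbxa2r (log2 fold change -3.41, SE 1.75) and Ptgfrn, whose product binds to the prostaglandin F receptor (-0.14, 0.07), did not pass in the authors' deposited table. The prostacyclin receptor gene Ptgir averaged 0.322 normalized counts in the authors' deposited table.

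**Figure D5:**
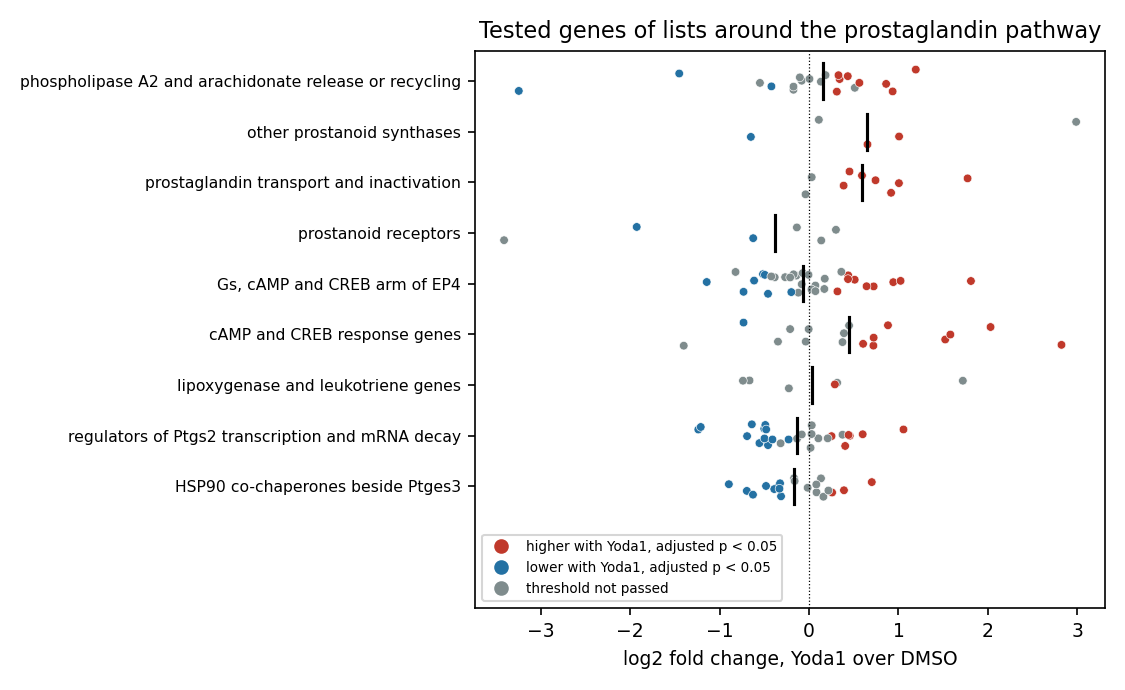
Log2 fold change, Yoda1 over DMSO, of the tested genes in the 9 lists around the prostaglandin pathway, from the authors' deposited table. Each point is a gene, red where higher, blue where lower and grey where it did not pass, and black bars are medians over the tested genes of a list. Points of transport and inactivation lie mostly right of 0 (7 higher, 0 lower). None of the 6 tested genes of the receptor list, which includes Ptgfrn, Ppard and Pparg, is red. Over all tested genes 22.4% were higher and 22.1% lower.

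Downstream of EP4, the genes of Gs, cyclic AMP and CREB signalling had 9 higher and 7 lower of 33 tested (median log2 fold change -0.07), or 11 higher and 5 lower with equal summed counts. Of all tested genes, 22.4% were higher and 22.1% lower in the deposited comparison, and equal summed counts gave 4138 higher and 2500 lower. Prkar2b, a regulatory subunit of protein kinase A, was 3.51-fold higher with Yoda1 (95% interval 3.00 to 4.10), and the receptor kinase genes Grk5 and Grk6 were 1.92-fold (1.62 to 2.27) and 1.56-fold higher (1.37 to 1.79), per the authors' deposited table. The cyclic AMP phosphodiesterase gene Pde8a was 2.21-fold lower (1.93 to 2.53), per the authors' deposited table. Of 4 tested adenylyl cyclase genes, Adcy3, Adcy6 and Adcy7 had log2 fold changes of 0.44, 0.51 and 0.44 (standard errors 0.09, 0.09 and 0.08) and passed, and Adcy9 had -0.14 (0.18) and did not, in the authors' deposited table. Of 17 tested cyclic AMP and CREB response genes, 8 rose and 1 fell (median 0.45), or 8 and 0 with equal summed counts. The orphan receptor genes Nr4a1 and Nr4a2 were higher by 2.87-fold (2.41 to 3.42) and 2.99-fold (2.48 to 3.60), Dusp1, a phosphatase of MAP kinases, by 7.07-fold (5.66 to 8.85), and the AP-1 gene Fosl2 was 1.84-fold higher (1.67 to 2.03), per the authors' deposited table. Pde4b, which breaks down cyclic AMP, was the 1 that fell (log2 fold change -0.73, SE 0.28) in the authors' deposited table. The other 8 tested response genes did not pass, among them Sik1 (-0.004, 0.21), Per1 (-0.35, 0.21), Fosb (-0.04, 0.25) and Fos (0.37, 0.22). Whether EP4 or cyclic AMP acted on any of these genes was not tested.

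Of 27 tested regulators of Ptgs2 transcription and message decay, 6 were higher and 12 lower (median log2 fold change -0.13), or 8 and 11 with equal summed counts. The share higher in the deposited comparison is near the 22.4% of all tested genes, and 22.1% of all were lower. Over all tested genes, equal summed counts gave 4138 higher and 2500 lower. Zfp36l1 and Zfp36l2, which encode related proteins that promote decay of AU-rich messages, moved in opposite directions, with log2 fold changes of -1.21 and 1.06 (standard errors 0.10 and 0.09) in the authors' deposited table. The NF-kappaB subunit gene Rela had a log2 fold change of -0.69 (SE 0.11) and the calcineurin-regulated factor gene Nfatc3 -0.50 (0.07) in the authors' deposited table. Cebpb, which encodes a C/EBP factor and was named after its value had been seen, had a log2 fold change of 0.60 with a standard error of 0.12 (adjusted p = 3.68e-06 by DESeq2) in the authors' deposited table. Cebpd, for another C/EBP factor, had -0.32 (SE 0.15) and did not pass (adjusted p = 0.0765 by DESeq2). In the same list Creb1 (-0.46, 0.11) and Usf2 (-0.48, 0.11) were lower, and Usf1 (0.03, 0.12) did not pass. Whether any of these factors acted on Ptgs2 was not tested.

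Beside Ptges3, a list of HSP90, co-chaperone and related genes had 9 of 20 tested genes lower with Yoda1 and 3 higher (median log2 fold change -0.16). With equal summed counts, 7 were lower and 6 higher. The list also holds the HSP70-family genes Hspa8 (log2 fold change -0.02, SE 0.08) and Hspa4 (-0.31, 0.13) and the glucocorticoid receptor gene Nr3c1 (-0.39, 0.10). Hspa4 and Nr3c1 are among the 9 lower. Over all tested genes 22.1% were lower and 22.4% higher, and equal summed counts gave 2500 lower and 4138 higher. The cytosolic HSP90 genes Hsp90aa1 and Hsp90ab1 had log2 fold changes of -0.70 and -0.32 (standard errors 0.14 and 0.07), Sgta, another co-chaperone, -0.63 (0.07), and Hsp90b1, of the endoplasmic reticulum, -0.90 (0.09) in the authors' deposited table. The 3 higher genes were Cdc37 (log2 fold change 0.26, standard error 0.08), Chordc1 (0.39, 0.16) and Telo2 (0.70, 0.15) in the authors' deposited table.

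The other branch of arachidonate use had few genes with an adjusted p. Of 6 tested lipoxygenase and leukotriene genes, 1 rose and 0 fell: Lta4h, the leukotriene A4 hydrolase, with a log2 fold change of 0.29 (SE 0.08), with 1519 normalized counts on average, in the authors' deposited table. The shares over all tested genes were 22.4% higher and 22.1% lower. The lipoxygenase genes Alox12 (log2 fold change -0.67, SE 0.51) and Aloxe3 (-0.74, 1.60) and the glutamyltransferase gene Ggt1 (1.72, 0.93) did not pass in the authors' deposited table. The lipoxygenase genes Alox5 and Alox15 stood at means of 0.165 and 0.157 normalized counts in the authors' deposited table and had no adjusted p.

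Cell type markers were read for the whole table. The osteoblast genes Col1a1, Runx2 and Sp7 had means of 171434, 2102 and 2405 normalized counts, while Alpl stood at 47.3 and the late marker Bglap at 4.70 in the authors' deposited table. Of the 11 osteoblast genes listed, 2 were higher and 7 lower with Yoda1 (median log2 fold change -1.34), against 22.4% and 22.1% of all tested genes. The part of this in the prostaglandin results was not tested. The 2 higher genes encode matrix proteins, Spp1 at 7.44-fold (95% interval 6.70 to 8.26) and Dmp1 at 10.8-fold (9.42 to 12.4), per the authors' deposited table. Among the lower ones, Ibsp had a log2 fold change of -4.90 (SE 0.14), Postn -2.57 (0.08), Alpl -5.91 (0.67) and Col1a1 -1.45 (0.09) in the authors' deposited table. Of 11 monocyte and macrophage markers, whose cells also make prostaglandins, 8 had a row and 4 an adjusted p, of which 1 rose (Cd14, 6.64-fold, 95% interval 5.46 to 8.09) and 1 fell (Lyz2, log2 fold change -1.35, standard error 0.23), while Csf1r (1.42, 0.75) and Cd68 (0.07, 0.75) did not pass, in the authors' deposited table. The summed implied level of that list was 1074 normalized counts in Yoda1 and 306 in DMSO cultures, with Cd14 alone at 989 and 149, and the defining leukocyte gene Ptprc was at a mean of 0.157 in the authors' deposited table. None of 3 tested endothelial markers (Pecam1, Vwf and Egfl7) and 2 tested adipocyte markers (Fabp4 and Pparg) passed, and their summed implied levels were 54.6 in Yoda1 and 45.8 in DMSO cultures for endothelial genes, and 8.14 and 4.76 for adipocyte genes. In such bulk libraries, fewer cells of a type and less RNA per cell cannot be told apart.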

How the data were processed

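RNA-seq of MC3T3-E1 cultures was used as 1 deposited table of the authors' own comparison, which left 0 columns of values per library. Per the submitters' processing notes, the tools were Salmon and DESeq2 and the build GRCm39, with no role or version stated. The mean normalized count is a signal the authors averaged over libraries, and log2 fold changes with standard errors come from the authors, per the file headers. The Wald statistic is a score deposited by the authors, and the deposited p-value and adjusted p-value are its normal tail and the Benjamini-Hochberg adjustment of it, as checked on all rows. Yoda1 over DMSO is the direction in the table's name. Without library totals, depth is unknown here.

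The main result is the authors' adjusted p under 0.05 over 14653 tested genes. Intervals (95%, normal), group levels and alternatives were computed in Python 3.11.15 with scipy 1.17.1. The code for the calls was run on simulated fold changes with normal noise of the deposited standard errors. That run checks the code alone, since it takes those standard errors as true and simulates no counts. No count test could be run as the design foresaw, since the table holds no counts. Levels per kilobase used the longest coding transcript of GENCODE M21 basic (GRCm38), not the authors' annotation. The named genes are the 8 pathway genes, the 4 tested genes of each list, marker lists included, with the smallest adjusted p, and all called genes of a direction with 5 or fewer in a list; other list genes were named after their values were seen. The genes and lists were chosen with earlier results of these data known. Alternatives were no filter, a stricter filter at 5 times the lowest tested mean, 3 centrings, a t distribution, fold thresholds of 0.5 and 1, and a test against 0.5.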

Additional observations from a re-analysis of the deposited data

How the results depend on the processing

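Ptgs2 and Ptges kept their call under all 9 alternatives. Only the 3 centrings change a fold change, by 1 constant for all genes: the median (-0.01), the trimmed mean (-0.02) or the log2 ratio of summed counts (-0.11) was subtracted, which raised each value by that size. With equal summed counts, Ptges2 (0.45) passed, Ptges3 (-0.20) did not, so that 0 of the 8 genes were lower, the pathway lists gave 51 and 28, and the split of all tested genes became 4138 higher and 2500 lower, against 3285 and 3233. With the t distribution, Ptges3 (-0.30) did not pass and 0 of the 8 were lower, all tested genes gave 1522 higher and 1468 lower, and the pathway lists 24 and 19, against 43 and 33. With a fold threshold of 0.5, Ptges3 (-0.30) dropped out, leaving 0 lower, with 2023 higher and 1954 lower over all genes and 27 and 18 in the lists. With a fold threshold of 1, Pla2g4a (0.79), Ptgs1 (0.62) and Ptges3 (-0.30) dropped out, leaving 2 higher (Ptgs2 and Ptges) and 0 lower, with 721 and 765 over all genes and 11 and 6 in the lists. Tested against 0.5, Ptgs1 (0.62) and Ptges3 (-0.30) did not pass, leaving 0 lower, with 702 and 691 over all genes and 11 and 7 in the lists.

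Over 485 values of the 55 further genes that the naming rule picked, 59 lost a call and 1 gained one. Over the alternatives, the count of genes higher ranged from 1 to 8 in the phospholipase list, 0 to 3 in other synthases, 2 to 7 in transport and inactivation, 2 to 11 in the Gs arm, 4 to 8 in cyclic AMP response genes, 0 to 1 in lipoxygenase genes, 1 to 8 in Ptgs2 regulators and 0 to 6 in the HSP90 list. The count lower ranged from 1 to 3, 0 to 1, 0 to 0, 1 to 7, 0 to 1, 0 to 0, 2 to 12 and 0 to 9 in the same lists, and from 1 to 2 in receptors. Leaving out a replicate, restoring the left-out libraries, edgeR and another pseudocount were not run, because they need values per library. No paired analysis was possible because the table used holds 1 comparison and no column per library. Low means limit Ptgis, Ptger4, Ptger2, Ptger3, Ptgir and Tbxa2r.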
